A study of Mus musculus with 21 samples.

Results

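Lyn, Cd72 and Otulinl are 3 of the 30961 gene models in a table of RNA levels from the stromal vascular fraction of mouse subcutaneous fat, the mixed cells left when digested fat is freed of its adipocytes. They were taken by their symbols, each of which stands on 1 row. They had been chosen with their levels in all groups known, so their levels and differences are described here and not tested. The fraction came from both inguinal fat pads of female C57BL/6J mice aged 8 to 12 weeks, with the lymph nodes removed and red blood cells lysed. RNA was taken from the fresh cells (P0 day 0) and from primary culture on plastic at day 3, 7, 14, 21 and 28. A 7th group, P1 day 28, came from day 28 cells that were passaged and grown for another 28 days. All cultures were grown in the same minimal medium with serum, and no group carried a genetic change or a drug. Each group had 3 libraries, and nothing in the labels says whether they came from separate animals or dishes. The p-values given here for other genes therefore measure only the spread between these libraries.

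Lyn encodes a tyrosine kinase of the Src family, which sits at the inner face of the plasma membrane of B cells and myeloid cells and phosphorylates the signalling tails of many receptors. Cd72 encodes a membrane receptor with a C-type lectin-like domain and an inhibitory tyrosine motif in its tail, known best from B cells and also found on macrophages. Lyn can phosphorylate that tail, to which a phosphatase then binds and damps signalling. Otulinl encodes a membrane-bound relative of the deubiquitinase Otulin that lacks the enzyme's activity. In fat, the leukocytes of the stromal fraction are mainly macrophages, with smaller numbers of lymphocytes and mast cells.

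Support that the symbol of a row names the gene measured there was found on only some stretches of the genome. Symbols elsewhere were not used, and whether they are wrong was not tested. Gene models above the detection floor matched the exons of the GENCODE M21 annotation of GRCm38 without an offset on a few chromosome stretches. There the symbol was kept, which held for 549 of 16184 protein-coding genes, 284 of them on chromosome 4 and 81 on chromosome 15. The best offset was 0 bases for each of Lyn, Cd72 and Otulinl, with posterior probabilities of 1.000, 0.998 and 1.000 for an offset within 1000 bases. The deposited log2 values are centred for each gene, and levels were recovered from them as reads multiplied by a factor for each library. A level of 30 is the upper floor, below which reads are not resolved, and it lies at 18 to 25 reads in the day 0 libraries and at 25 to 41 reads in the others. The libraries held between 2501719 and 3680380 recovered reads above that floor. Replicates correlated across gene models at 0.936 to 0.962.

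In GENCODE M21, Lyn (ENSMUSG00000042228) lies on the plus strand of chromosome 4 at 3678115 to 3813122, Cd72 (ENSMUSG00000028459) on the minus strand of chromosome 4 at 43446462 to 43454628, and Otulinl (ENSMUSG00000056069) on the minus strand of chromosome 15 at 27655069 to 27681579, all on GRCm38. Each is a protein-coding gene whose values stand for the gene as a whole, and which of its exons they count is not known. The submitters' processing notes name GRCm39, so these coordinates belong to the annotation and not to the deposited table. Of the 3 genes, 2 matched the RefSeq promoter table, Cd72 and Otulinl, and their windows are shown because both genes ranged widely in level. Both sequences are from GRCm38.p6, 250 bases before to 50 after the annotated start, read along the gene's strand. Capitals mark the PU.1 site searched in the Cd72 window and the GC boxes in the Otulinl window.
Cd72, chr4:43454577-43454876, minus strand: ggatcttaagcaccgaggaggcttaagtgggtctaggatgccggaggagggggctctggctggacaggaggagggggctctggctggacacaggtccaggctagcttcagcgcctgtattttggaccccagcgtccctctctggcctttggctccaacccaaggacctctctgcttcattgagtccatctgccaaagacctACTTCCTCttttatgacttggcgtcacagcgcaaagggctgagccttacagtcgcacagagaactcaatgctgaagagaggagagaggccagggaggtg
Otulinl, chr15:27681493-27681792, minus strand: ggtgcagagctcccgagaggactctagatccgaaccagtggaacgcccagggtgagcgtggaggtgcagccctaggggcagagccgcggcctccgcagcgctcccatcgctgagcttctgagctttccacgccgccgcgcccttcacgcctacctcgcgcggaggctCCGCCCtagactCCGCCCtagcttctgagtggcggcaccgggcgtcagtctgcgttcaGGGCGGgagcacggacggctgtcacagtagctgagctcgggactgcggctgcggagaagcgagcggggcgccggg

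Motifs were searched on both strands of each window. The letters GAGGAAGT, a site of PU.1, the transcription factor of myeloid and B cells, occurred once in the Cd72 window, on the strand opposite to the gene and starting 49 bases before the annotated start. They occurred in 3.2% of the 32851 promoter windows of the table and not in that of Otulinl. The letters GGGCGG, a GC box, occurred 3 times in the Otulinl window, and 35.7% of all windows held them, while that of Cd72 did not. Neither window held TGANTCA (AP-1, in 7.81% of windows), CACGTG (the E-box of the MITF and TFE family, in 7.15%) or TATAAA (the TATA box, in 13.6%). The Otulinl window was 70.0% G or C and the Cd72 window 57.7%. A match describes letters in a window and no more.

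Levels of the 3 genes followed a common outline: lower at day 3 than in the fresh cells, higher at day 28 than at day 3, and lower again after passage. They differed in depth and timing. Lyn moved within a narrow range and, as deposited, was lowest in P0 at days 3 to 14, Cd72 was on the floor at day 3 and above it in all libraries from day 14, and Otulinl was higher at each day from day 3 to day 21.

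Lyn was read deeply in every library, from 894 to 3230 reads. Its level at day 0 was 1928, 2364 and 2216 in replicates 1, 2 and 3. At day 3 it was 1347, 1244 and 1177. All day 3 libraries lay below all day 0 libraries, with a log2 difference of -0.79 ± 0.10 (standard error, n = 3 per group), a level 1.72-fold lower.

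At day 7 the Lyn levels were 1089, 1321 and 1289, and day 14 libraries had 1298, 1490 and 1014. Days 3, 7 and 14 overlapped, with log2 means of 10.29, 10.26 and 10.29 as deposited. This level stretch depended on the scaling: the log2 difference of day 14 from day 7 was 0.03 ± 0.18 as deposited, 0.30 after quantile normalization and 0.29 with library medians set equal. The difference of day 14 from day 0 was -0.79 as deposited, and -0.22 and -0.20 after these rescalings. At day 21 the levels were 2167, 2470 and 2461, all above those of day 14. The log2 difference was 0.92 ± 0.17 as deposited, 0.68 after quantile normalization and 0.69 with library medians set equal. At day 28 the levels were 2588, 2483 and 2998, just above every day 21 library, with a log2 difference of 0.18 ± 0.10. Lyn was also above its fresh level by day 28 in all libraries, by 0.31 ± 0.12 on the log2 scale.

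After passage, Lyn levels were 936.6, 793.7 and 1081, below all P0 libraries except that replicate 3 of P1 lay above replicate 3 of day 14. The P1 mean was 2.88-fold lower than that of P0 day 28, a log2 difference of -1.53 ± 0.15. In order of mean level, day 28 came before day 21, day 0, day 3, day 14, day 7 and P1. Day 21 overlapped day 0, and days 3, 14 and 7 overlapped their neighbours in that order.

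Cd72 levels at day 0 were 262.8, 162 and 259, from 160, 97 and 212 reads. At day 3 all 3 libraries lay on the upper floor, with fewer than 30, 27 and 34 reads. The level was therefore at least 7.42-fold lower than at day 0. At day 7 replicate 1 stood at 90.12, from 74 reads, while replicates 2 and 3 lay on the floor. The day 7 mean rests on that 1 library.

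Cd72 was above the floor in every later P0 library. Day 14 libraries had levels of 141.6, 224.2 and 181.4 and overlapped day 0. Day 21 libraries had 454.8, 538.8 and 533.9. Day 28 libraries had 923.6, 635.8 and 852.2, and no library of one of these days reached into the next. Successive log2 differences were 2.05 ± 0.56 from day 7 to day 14, understated by the floor, then 1.50 ± 0.21 and 0.65 ± 0.18. By day 28 the level was 3.57-fold that of fresh cells and at least 26.5-fold that of day 3.

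In P1 cells, Cd72 was at 51.91 in replicate 1, from 70 reads, and on the floor in replicates 2 and 3. All P1 libraries were below every P0 library of days 0, 14, 21 and 28, and they overlapped days 3 and 7. The difference of log2 means from P0 day 28 was -4.46 ± 0.31. Its size is understated because 2 of 3 P1 libraries were on the floor, and values tied on a floor also narrow the standard error. In order of mean level, day 28 was followed by day 21, day 0, day 14, day 7, P1 and day 3, with overlap between day 0 and day 14 and among the lowest 3 groups.

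**Figure D1:**
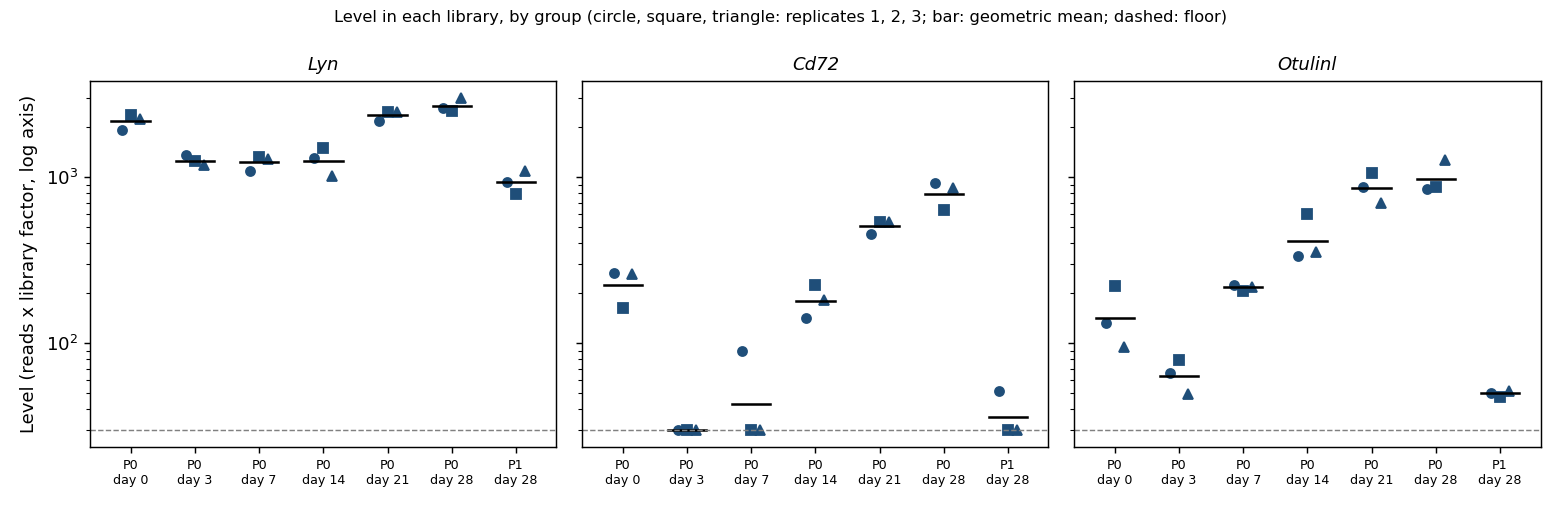
Levels of Lyn, Cd72 and Otulinl in the 21 libraries on a log axis, with 1 panel per gene, a marker shape per replicate, a bar at the geometric mean of each group, and a dashed line at the floor of 30. Lyn runs between 793.7 and 2998, Cd72 from the floor to 923.6, and Otulinl from 47.72 to 1262, and all are lowest at day 3 or in P1.

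Otulinl levels at day 0 were 133, 220.4 and 95.3, the widest relative spread of its groups. At day 3 they were 65.97, 79.72 and 49.62, from 64, 70 and 55 reads, all below day 0, a log2 difference of -1.14 ± 0.40. Unlike Cd72, Otulinl was never on the floor. At day 7 the levels were 225.3, 205.8 and 218.9, all above those of day 3 by a mean of 1.76 ± 0.20 and overlapping day 0.

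Day 14 libraries had Otulinl levels of 332.4, 596.5 and 351.9. Day 21 libraries had 868.8, 1049 and 697.1, and day 28 libraries had 847, 874.8 and 1262. Day 14 was above day 7 in all libraries, by 0.93 ± 0.27, and day 21 was above day 14, by 1.06 ± 0.32. Days 21 and 28 overlapped. The day 28 mean was 6.94-fold that of fresh cells and 15.3-fold that of day 3.

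After passage, Otulinl levels were 50.43, 47.72 and 51.55, from 68, 60 and 55 reads. These values lay close together and overlapped day 3 only. The P1 mean was 19.6-fold lower than that of P0 day 28, a log2 difference of -4.29 ± 0.19. In order of mean level, days 28, 21, 14, 7, 0 and 3 were followed by P1, with overlap between days 28 and 21, days 7 and 0, and day 3 and P1.

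The groups did not overlap for any of the 3 genes, all lower, from day 0 to day 3, where 45.8% of the 7764 tested gene models did the same. Likewise all 3 were higher without overlap at day 28 than at day 3, against 17.3% of gene models, and at day 28 than at day 0, against 13.6%. All were lower without overlap in P1 than in P0 day 28, against 22.9%, and in P1 than in day 0, against 58.4%. From day 14 to day 21 all 3 were higher, against 16.2%. Only Otulinl was higher without overlap from day 3 to day 7 (10.6% of gene models), Cd72 and Otulinl from day 7 to day 14 (6.47%), and Lyn and Cd72 from day 21 to day 28 (2.85%). These comparisons share groups with each other, and these genes were chosen on the same groups, so nothing is read from their counts.

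Whole libraries also shifted against each other. For the 3169 gene models that no library had on the floor, the median log2 difference against day 0 was -0.26 for day 3 and -0.33 for day 28. It was -0.10 for day 28 against day 3 and -0.27 for P1 against P0 day 28. With each library set to the same median, Lyn at day 3 was lower than at day 0 by a log2 difference of -0.48, and at day 28 higher by 0.65. Quantile normalization gave -0.44 and 0.66 for these, and -0.51 for Otulinl at day 3. The Cd72 level of day 14, which overlapped day 0, was 0.31 ± 0.30 log2 units below it as deposited, and above it after both rescalings, by 0.28 and 0.61. The rise from day 14 to day 21 became smaller after rescaling. For Cd72 it was 1.22 after quantile normalization and 1.27 after median scaling, and for Otulinl 0.85 and 0.83.

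Over the 21 libraries the log2 levels of Lyn and Cd72 had a Pearson correlation of 0.84, those of Cd72 and Otulinl 0.84, and those of Lyn and Otulinl 0.72. These libraries share 7 groups and their scaling, so the values describe the profiles and carry no test. Cd72 shares exons with a neighbour. Of its exonic bases, 1423 (41.6%) overlap those of Tesk1, a kinase gene on the opposite strand, and the library kit named in the labels is not one that keeps strand. Tesk1 levels were 261.8, 394.1 and 378.9 at day 3, where all Cd72 libraries were on the floor. At day 28 they were 64.8, 85.33 and 104.5, when Cd72 stood at 635.8 or more. The correlation between both genes over the libraries was -0.64. The rule for counting reads in shared exons is not known here, and the part of Tesk1 reads in the Cd72 values was not tested. Lyn shares 248 exonic bases (6.1%) with a non-coding RNA on the other strand, and Otulinl overlapped no other gene.

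**Figure D2:**
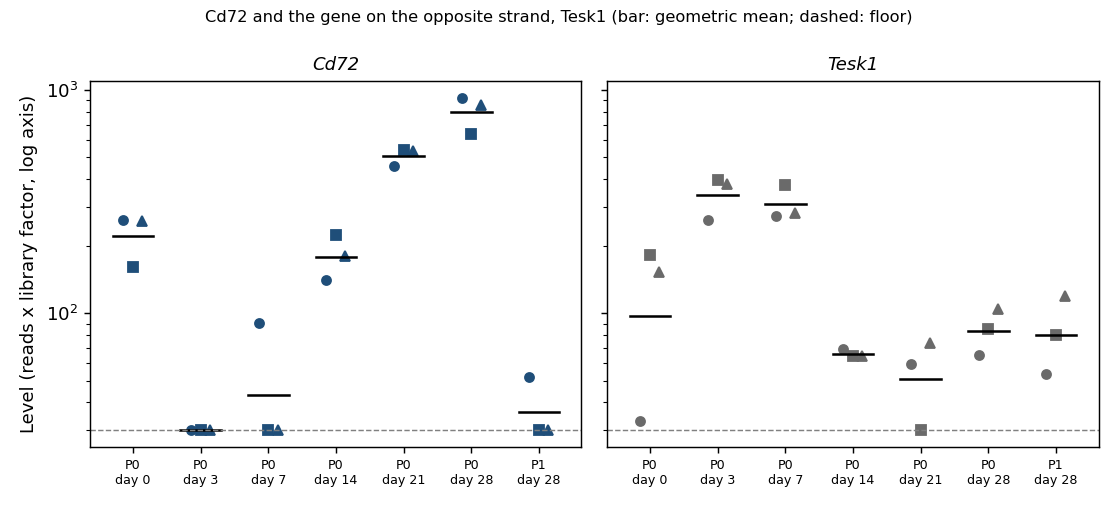
Levels of Cd72 (left) and of Tesk1, the gene on the opposite strand that shares exons with it (right), in each library by group on a log axis, with bars at geometric means and a dashed line at the floor of 30. Tesk1 is highest at days 3 and 7, where 5 of 6 Cd72 libraries lie on the floor, and at most 104.5 at day 28, where Cd72 reaches 923.6.

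Otulin, the active deubiquitinase next to Otulinl on chromosome 15, varied widely within groups, with levels of 74.84, 389.8 and 620.6 at day 28 and 58.58, 135.2 and 328 in P1. Its log2 difference between P1 and P0 day 28 was -0.93 ± 1.00 and did not pass the limma test (adjusted p = 0.631). The levels of Otulin overlapped in these groups, where those of Otulinl were far apart. Of the 45 genes listed for Lyn, Cd72 and Otulin signalling, only these 3 genes and Otulin had a symbol that could be used, so that the receptors' phosphatase and the other kinases of the family are not analysed here.

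Other leukocyte genes were compared from lists of myeloid, B cell, T and NK cell, and mast cell and granulocyte markers. Of their 140 genes, 11 had a usable symbol and 9 were tested. The lists were chosen with earlier results of these data known. The counts and adjusted p-values of their genes below therefore describe these genes and are no independent test of leukocytes. Pax5 and Sit1, of B and T cells, were above the floor in no library. No mast cell or granulocyte marker and none of the macrophage surface markers in the lists had a usable symbol, so the presence of these cells could not be checked by them.

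From day 0 to day 3, limma called 2 of the 9 genes higher and 3 lower, where it called 10.8% and 40.5% of gene models. That background split turned with the scaling, from 842 higher and 3148 lower to 1938 and 1664 after quantile normalization and 1472 and 2302 after median scaling, while the 9 genes had 2 and 2, and 2 and 3. Irf5, an interferon-linked transcription factor of myeloid cells, rose from a log2 mean of 7.54 to 8.62 (adjusted p = 0.00584). Tfec, a macrophage transcription factor, was on the floor in all day 0 libraries and stood at 63.91, 39.86 and 80.3 at day 3 (adjusted p = 0.00529). Casp4, an inflammatory caspase, fell by 3.07 ± 0.36 (adjusted p = 1.53e-06). The lymphocyte genes Tox and Il7r fell by 1.80 ± 0.34 and 1.62 ± 0.39 (adjusted p = 0.000246 and 0.00212), with 2 of 3 day 3 libraries of each on the floor. Il7r was not called after quantile normalization (adjusted p = 0.0933). The list's median log2 difference was -0.53, against -0.42 over all gene models. Irf5 and Tfec thus moved opposite to Lyn, Cd72 and Otulinl in the same libraries.

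From day 3 to day 28, limma called 6 of the 9 higher and 0 lower, where it called 13.5% and 19.3% of gene models, and 2 of the 9, Bach2 and Il7r, had negative differences that were not called. Atp6v0d2, a subunit of the proton pump of osteoclasts and some macrophages, rose by 6.59 ± 0.42 from a group wholly on the floors (adjusted p = 1.36e-09). Mmp12, the macrophage elastase, rose by 2.73 ± 0.23 (adjusted p = 5.81e-08) and Tfec by 2.00 ± 0.27 (adjusted p = 1.27e-05). Casp4, Casp1, which cleaves interleukin precursors, and Irf5 rose by 1.88, 1.61 and 1.20. Irf5 was not called when limma was fitted to these 2 groups only (adjusted p = 0.0557). The B cell factor Bach2 had a log2 difference of -1.04 (adjusted p = 0.0802), and Tox and Il7r had 0.25 and -0.01 (adjusted p = 0.641 and 1). The list's median was 1.61, against -0.07 over all gene models. Between day 14 and day 21 alone, 5 of the 9 were called higher and 0 lower, where 5.36% and 0.902% of gene models were called: Atp6v0d2, Casp1, Irf5, Mmp12 and Tfec. Of these, Tfec and Irf5 lay nearest the threshold (limma adjusted p = 0.0449 and 0.0225). Gene models that no library had on the floor had a median log2 difference of 0.20 in that step. Its calls were not counted under other scalings or with libraries left out.

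From P0 day 28 to P1, limma called 5 of the 9 lower and 0 higher, where it called 12.8% and 1.85% of gene models. After quantile normalization 5 of the 9 were called lower and 1 higher, with 449 and 413 of all gene models, and after median scaling 5 and 0, with 374 and 409. Atp6v0d2 fell by 3.15 ± 0.42 (adjusted p = 5.44e-05) and Tfec fell by 2.95 ± 0.27 (adjusted p = 8.97e-07). The transcription factor gene Irf5 fell by 2.06 ± 0.30, Casp1 fell by 1.705 ± 0.235 and Mmp12 fell by 1.18 ± 0.23 (adjusted p = 0.000136, 7.92e-05 and 0.00193). Casp4 had a log2 difference of 0.28 ± 0.36 (adjusted p = 0.706). The lymphocyte genes Bach2, Tox and Il7r had -0.39, 0.63 and -0.07 (adjusted p = 0.645, 0.245 and 1), and Tox was called higher after quantile normalization (0.94, adjusted p = 0.0493). The list's median was -1.18, against -0.22 over all gene models. P1 cells had been passaged and had also been in culture for longer, so that these cannot be told apart. Against the fresh cells, limma called 5 of the 9 higher and 4 lower at day 28, where it called 13.2% and 47.1% of gene models. After quantile normalization it called 5 higher and 0 lower, so that none of the 4 lower calls held, and all gene models went from 1025 higher and 3656 lower to 2203 and 1929. Median scaling gave 5 higher and 4 lower, with 1644 and 2701 of all gene models. In P1 against day 0 it called 2 higher and 5 lower, where it called 8.13% and 57.3%. That split turned round, to 3 higher and 1 lower after quantile normalization and 4 and 2 after median scaling. All gene models went from 631 and 4446 to 2323 and 1868, and to 1842 and 2395. As deposited, the 2 higher genes were Atp6v0d2 and Mmp12, by 4.048 and 1.404 (limma adjusted p = 2.23e-07 and 4.61e-05). All day 0 libraries of Atp6v0d2 lay on a floor. The 5 lower genes were Casp1, Casp4, Bach2, Tox and Il7r. Lyn, Cd72 and Otulinl were also lower in P1 than at day 0, with log2 differences of -1.218, -2.627 and -1.498. Atp6v0d2 and Mmp12 thus differed from day 0 in the opposite direction.

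**Figure D3:**
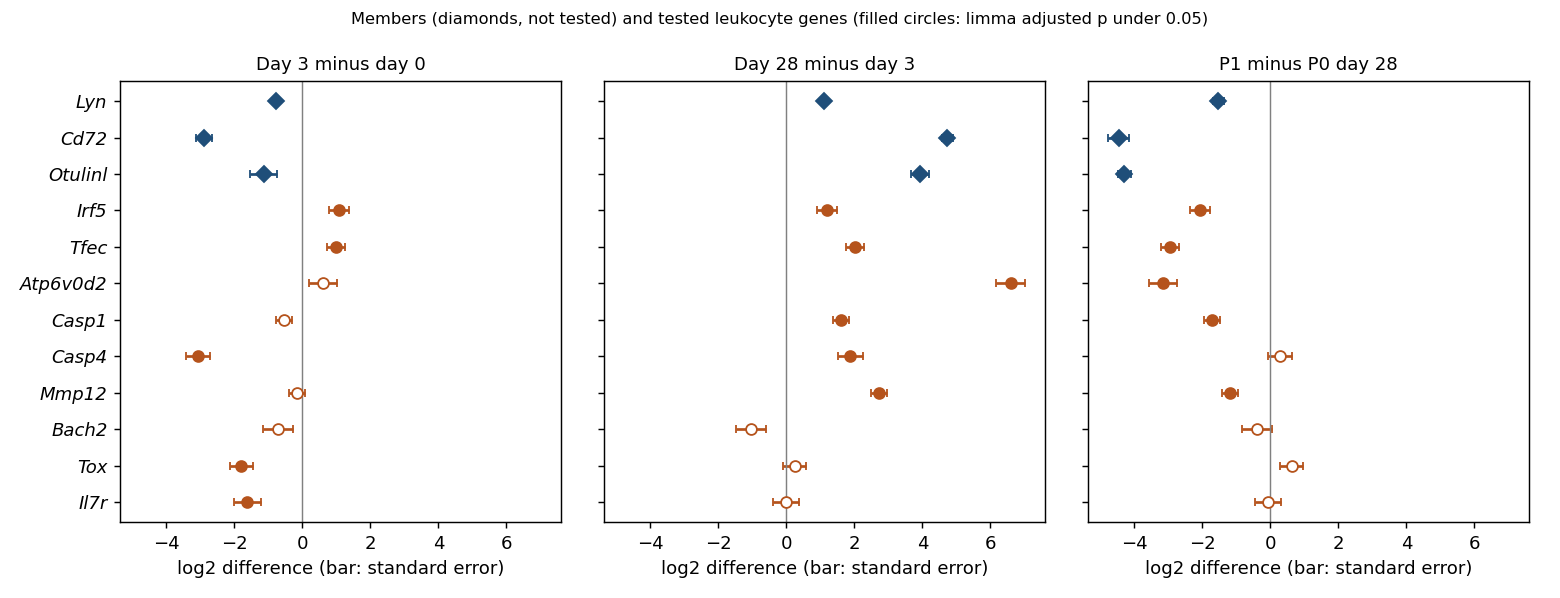
Log2 differences with standard errors for Lyn, Cd72 and Otulinl (diamonds, not tested) and the 9 tested leukocyte genes (circles, filled where limma's adjusted p is under 0.05) in 3 comparisons of 3 libraries each. Standard errors of diamonds come from the compared groups alone and those of circles from the limma fit of all groups, so they differ in kind. Cd72 and Otulinl lie at -4.46 and -4.29 in P1 against P0 day 28, beyond Atp6v0d2 at -3.15, the lowest tested gene of the list.

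In the sums that follow, a value on a floor counts as 0, so that low sums are lower limits. Summed over the 6 myeloid genes with a usable symbol, levels ranged from 1855 to 2069 at day 0, 1121 to 1458 at day 3, 1726 to 2224 at day 7 and 2429 to 3368 at day 14. They reached 5541 to 10005 at day 21 and 6874 to 10072 at day 28, and were 2472 to 2945 in P1. The day 28 sum was mostly Mmp12, at 3007 to 3854, and Atp6v0d2, at 1919 to 3414. Irf5, Casp1 and Tfec were also higher at day 28 than at day 0, at 645 to 1435, 386.7 to 555.9 and 192.8 to 288.4. Casp4 was lower at day 28 than at day 0, at 278.4 to 620.6. The lower sum at day 3 than at day 0 was set by Casp4, at 938.4 to 1057 at day 0 and 83.9 to 145.3 at day 3. Irf5 and Tfec were higher at day 3 than at day 0, so this part of the sum is not a shared fall of the myeloid genes. Bach2, the B cell marker above the floor, ranged from 73.47 to 195.4 at day 0, 59.78 to 102.5 at day 3 and 115.7 to 188.1 at day 7. It was at most 58.85 at day 14 and at most 78.65 at day 28. Tox and Il7r together ranged from 180.8 to 240.4 at day 0. At day 28 Tox alone stood at 35.59, 61.5 and 34.48, and Il7r was on a floor in 2 of 3 libraries and at 34.48 in the other. Markers of other cells moved too: 4 epithelial markers summed to between 32072 and 71795 at day 0, mostly Prlr at 27341, 28296 and 66942. Esrp1, Grhl2 and Aqp3 ranged there from 2345 to 2715, 884.6 to 1124 and 1417 to 1559. At day 28 all values of these 4 markers lay on a floor except 1 of Prlr at 43.09. The adipocyte markers Lep and Aqp7 summed to between 1638 and 1762 at day 0, mostly Aqp7 at 1597 to 1675, and at day 28 all their values lay on a floor. Of 12 stromal markers, only Col15a1 and Svep1 could be summed. Their sum lay between 405.7 and 676.9 in fresh cells, between 6908 and 8744 by day 28, and between 3516 and 5637 in P1. The day 28 sum was mostly Svep1, at 6309 to 7630, with Col15a1 at 599.6 to 1114. From day 0 to day 3 the geometric mean of Col15a1 fell from 368.5 to 118.5, while that of Svep1 rose from 140.1 to 476.9. The part of these cell types in the levels of Lyn, Cd72 and Otulinl was not tested. In bulk RNA, fewer cells of a type and less RNA per cell cannot be told apart.

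The genes whose profiles were most like each of the 3 were sought among 449 other tested protein-coding genes with a usable symbol, by Pearson correlation of log2 levels over the 21 libraries. For Lyn they were Sdcbp (0.86), which encodes the scaffold syntenin, Casp1 (0.84), Ggh (0.84), a lysosomal folate hydrolase gene, and Cd72 itself (0.84). For Cd72 they were Ggh (0.91), the galactosyltransferase gene B4galt1 (0.90), Tmem38b (0.88), a cation channel gene of the endoplasmic reticulum, and the transcription factor gene Osr2 (0.86). For Otulinl they were B4galt1 (0.91), the ubiquitin ligase gene Wwp1 (0.87), Cd72 (0.84) and Tfec (0.84). Ggh had geometric mean levels of 1522 at day 0, 739.1 at day 3, 1832 at day 28 and 864.9 in P1. B4galt1 had 4583, 3199, 6371 and 3107 in the same groups. The 7 groups had the same order for Ggh as for Cd72, over a narrower range, while B4galt1 was higher at day 21 than at day 28. Casp1 and Tfec were the leukocyte markers among these genes.

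**Figure D4:**
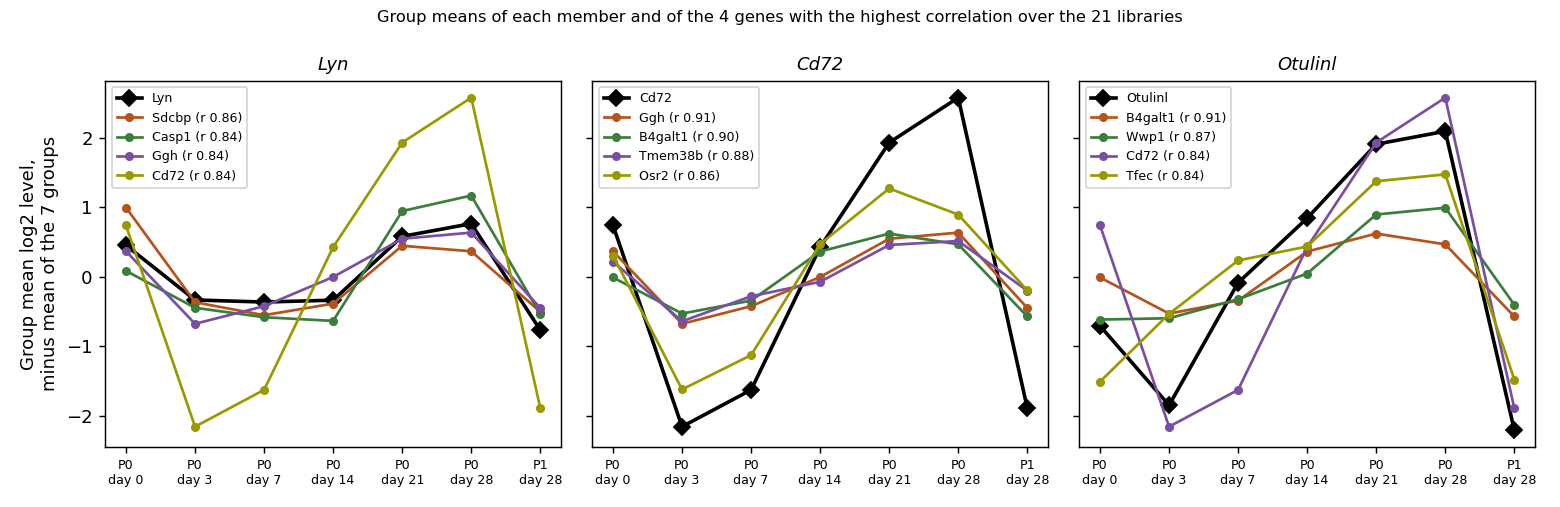
Group mean log2 levels, each gene centred on the mean of its 7 groups, for Lyn, Cd72 and Otulinl (black) and the 4 genes with the highest correlation with each over the 21 libraries. The black line of Cd72 spans from a log2 level of 4.91 at day 3 to 9.63 at day 28, wider than any of the 4 genes drawn with it.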

How the data were processed

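RNA-seq was measured in 21 libraries of 7 groups. The authors deposited 1 table of log2 values, centred per gene model. Per the submitters' processing notes the genome build was GRCm39. No source used here names the aligner, counting program, annotation or scaling. Per the labels' protocols, total RNA was taken with either of a pair of kits and cDNA was amplified from it. Which of these RNA kits was used for each library is not named. The lowest values repeat at floors whose step is that of 30 to 16, read here as 0 reads set to 16 and lower values to 30. Library factors and levels were recovered from these steps: 100.00% of 14244 levels below 200 that were off the floor came out as whole reads within 0.1 read, and 30463 gene models got a level. A further 493 had 1 value throughout, and 5 with an unresolved level, Col1a2 among them, were left out. The absolute scale rests on this reading, and differences do not. Full depth is unknown because reads under the floor are missing, so no counting interval and no count test was made. Recovery was tested on 6000 simulated gene models, all resolved and 100.0% right. They were simulated with the same floors and the same rule, so this does not show that the real table was made that way.

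A symbol was kept where a hidden Markov model along the chromosome put the offset between detected gene models and GENCODE M21 exons within 1000 bases with a posterior of at least 0.9. In a simulation on chromosome 4 it kept 1426 of 1447 genes without an offset and 3 wrongly. That simulation was drawn from the same model and does not measure errors in the real table.

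The design had foreseen these log2 values. Gene models above 30 in at least 3 libraries (7764) were tested with limma 3.58.1 (R 4.3.3) with a trend, in 1 fit of all groups and 12 comparisons, with Benjamini-Hochberg adjustment over all tested gene models and calls under 0.05. In a simulated comparison of P1 with P0 day 28 limma recovered 59 of 100 changes of 1 log2 unit and 86 of 100 of 2, with 6 false calls. The simulation added normally distributed noise and set no floor, unlike the real levels, so recovery in the real data can differ. Python 3.11.15, numpy 2.4.6 and matplotlib 3.10.9 were used for the rest. Genes and lists were chosen with earlier results of these data known. Named genes were the 3 genes, the tested list genes, Otulin and the 4 most correlated genes for each. Tesk1 was added after the overlap was seen. Alternatives were other scalings, floors, filters, symbol limits, groups fitted alone, replicate blocks and left-out libraries.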

Additional observations from a re-analysis of the deposited data

How the results depend on the processing

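Differences of Lyn, Cd72 and Otulinl kept their direction under every alternative run (quantile normalization, median scaling, a raised lower floor and each library left out), in the comparisons of day 3 and day 28 with day 0, day 28 with day 3, and P1 with P0 day 28 and day 0. Their size moved with scaling. Quantile normalization gave log2 differences for Lyn of -0.44 (day 3 against day 0), 0.66 (day 28 against day 0), -0.58 (P1 against day 0) and -1.24 (P1 against P0 day 28), for Cd72 of -2.17, 2.47 and -1.69 in the comparisons with day 0, and for Otulinl of -0.51, 3.55 and -0.28 there and -3.83 for P1 against P0 day 28. Median scaling gave for Lyn -0.48, 0.65, -0.55 and -1.20, for Cd72 -2.59 at day 3 and -1.96 for P1 against day 0, and for Otulinl -0.83 for P1 against day 0 and -3.97 for P1 against P0 day 28.

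Of the 9 leukocyte genes, limma called 9 at day 28 against day 0 (5 higher, 4 lower), and 5 after quantile normalization (5 higher, 0 lower). For P1 against day 0 it called 7 (2 higher, 5 lower), and 4 after quantile normalization (3 and 1) and 6 after median scaling (4 and 2), with 4 to 6 when a library was left out, the 4 without P0 day 0 replicate 2. In that comparison Casp1 (-0.62 as deposited) turned to 0.35 after quantile normalization (adjusted p = 0.213) and 0.0429 after median scaling (adjusted p = 0.889), and Tox (-0.92) to 0.27 after quantile normalization (adjusted p = 0.451). Over all gene models, the 1141 calls between P1 and P0 day 28 became 527 in a fit of these groups alone and 746 to 1067 with a library left out, the 746 without P0 day 28 replicate 3. Called higher and lower in that comparison were 144 and 997 as deposited, against 413 and 449 after quantile normalization and 409 and 374 after median scaling. Beyond what each construction changes, the cause was not tested. Pairing by replicate number was not seen: 5 of 63 same-numbered pairs of libraries correlated above 0.1 in their deviations from group means. The median correlation was -0.002 for same-numbered and 0.003 for differently numbered pairs. Deviations within a group of 3 are tied to each other, so a pairing is not excluded. With the replicate block, 1077 gene models and 5 leukocyte genes were called between P1 and P0 day 28. Depth limits Cd72 at days 3 and 7 and in P1, where 7 of 9 libraries were on the floor.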
